A study of Bos taurus with 4 samples.

Results

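Bovine intestinal organoids grown to passage 5 (P5) and passage 10 (P10) were compared with whole intestine, 1 library each, so that 3 of the 4 libraries of the series enter the comparison. The members are all rows of the deposited gene tables, and a row was taken to differ only where both organoid libraries lay on the same side of intestine. The intestine library came from tissue of a Hanwoo cow older than 24 months, labelled only as intestine. The study describes it as small intestine, and which part of it was taken is not given in the sources used here. The organoids were raised from jejunal crypts of Hanwoo cattle of that age, embedded in Matrigel with IntestiCult organoid growth medium and passaged weekly. The fourth library, of muscle, entered only the normalisation. The sources used here do not say whether organoids and tissue came from the same animal. Culture, medium, animal, gut segment and cell mixture therefore vary or may vary together between organoids and tissue and cannot be told apart. No gene has a replicate, and no p-value between conditions is given.

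The intestinal lining is a single sheet of epithelium that is renewed from stem cells at the base of the crypts. Their progeny become absorptive enterocytes, which digest and take up nutrients through the brush border, or secretory cells, which make mucus, hormones and antimicrobial proteins. Whole intestine also holds immune cells, fibroblasts, vessels, nerves and smooth muscle. An organoid is a closed cyst of epithelium grown from crypts in a gel, without those other tissues.

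Reads from the 3′ ends of polyadenylated RNA were counted per gene. Intestine had 17776273 reads, the P5 library 13599831 and the P10 library 17730571. The totals of intestine and P10 organoids were close, but the make-up of the libraries differed. For example, the ribosomal RNA row RN18S1 took 4.08% of the reads in intestine, 4.81% at P5 and 0.264% at P10. Reads are therefore not directly comparable between libraries. Differences are given as organoids minus intestine on the scale log2(quantile-normalised value + 1), and the folds are on the same scale. Of 29792 rows, 14570 had at least 50 reads in the highest of the 3 libraries and were compared. A row is called higher or lower where it passed 2-fold in the same direction in both organoid libraries. Limits in square brackets are 95% limits from Poisson counting error alone. They are narrow for abundant genes and do not cover the spread between cultures or animals, which was not measured.

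Among the 14570 rows, 2413 (16.6%) were higher in both organoid libraries than in intestine and 2360 (16.2%) were lower in both. The counts of calls in each gene list below are to be read beside these shares. Another 89 rows (0.611%) passed 2-fold in opposite directions at P5 and P10, and 6212 stayed within 2-fold at both passages. The median difference over all rows was 0.10 at P5 and 0.12 at P10, against 0.14 and 0.23 after scaling to library totals and -0.03 and -0.01 with TMM factors. With counts of 0 left at 0, 864 rows were 16-fold or more lower in both organoid libraries. Another 209 were 16-fold or more higher in both. Rows with a count of 0 can enter these numbers on a smaller bound. PLCB2, with 54 reads in intestine and 0 in both organoid libraries, is such a row. With 0 set to 3 reads it was at least 7.29-fold lower at P5 and 4.28-fold lower at P10. The gap between the sides was not recounted with that setting. The balance of calls depended on the scaling, with 50.6% of called rows on the higher side after quantile normalisation, 46.9% after scaling to library totals, 38.9% with TMM factors and 39.4% with upper-quartile factors. Of the calls, 1657 higher rows and 2218 lower rows were made under all 4 scalings. Complete absence was mostly on the organoid side: 397 rows with at least 50 reads in intestine had 0 in both organoid libraries, and 32 rows with at least 50 reads in both organoid libraries had 0 in intestine.

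**Figure D1:**
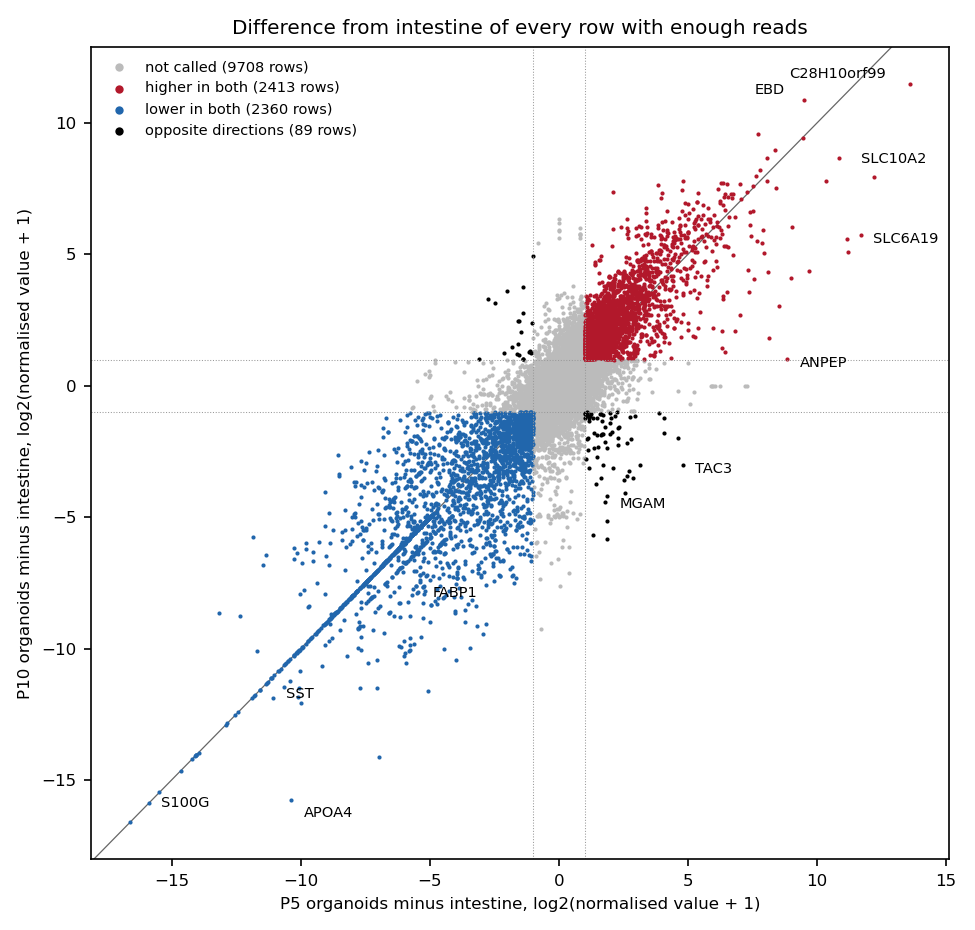
Each point is 1 of the 14570 rows compared, with the log2 difference of P5 organoids from intestine on the x axis and that of P10 organoids on the y axis. Dotted lines mark 2-fold, the solid line marks equal differences, and the blue points along the solid line at the lower left are rows with 0 reads in both organoid libraries. The 2413 higher and 2360 lower rows fill the upper right and lower left, and the 89 black points lie in the other corners.

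The 10 rows with the largest shared fall all had 0 reads in both organoid libraries. They included 3 genes of antigen presentation by MHC class II, the molecules with which immune cells show peptides to helper T cells. BOLA-DRB3 had 28674 reads in intestine, CD74 had 19046 and BOLA-DRA had 18609. Other rows of this set lie in immunoglobulin loci. LOC524810, with 96348 reads in intestine, carries the synonym IGHV in the RefSeq gene table, and LOC112442088, with 17687, is listed there as a constant region. LOC112441987, LOC100297192 and LOC112441982 had 20670, 19758 and 19281 reads in intestine and have only locus names. The remaining pair were epithelial. S100G, the small vitamin D dependent calcium carrier of enterocytes, had 69863 reads in intestine and was at least 14331-fold lower at P5 and 8401-fold lower at P10. MPTX, mucosal pentraxin, had 58723 reads in intestine and was at least 10739-fold lower at P5 and 6295-fold lower at P10. Such bounds set the 0 at the value of 3 reads.

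The 10 rows with the largest shared rise were led by peptides of surface defence. C28H10orf99, the bovine counterpart of a secreted chemoattractant peptide of barrier epithelia, had 0 reads in intestine, 10968 in P5 organoids and 3756 in P10 organoids. EBD, enteric beta-defensin, had 265, 121456 and 329091 reads in the same order. TAP, tracheal antimicrobial peptide, had 0, 721 and 965, and DEFB1, a beta-defensin, had 1, 332 and 397. SLC10A2, the sodium-dependent bile acid carrier of the ileum, had 0, 4605 and 343 reads. OSR2, a zinc finger transcription factor, had 0, 1871 and 576. AMBP, a secreted protease inhibitor precursor, had 0, 334 and 718 reads, ULBP21, of a family of stress ligands for NK cells, had 0, 214 and 425, and LOC112443745 had 0, 263 and 582. For the rows at 0 in intestine the rise was at least 6261-fold at P5 and 1442-fold at P10 for C28H10orf99, and at least 356-fold and 345-fold for TAP.

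Markers of immune cells, stroma, vessels, nerves and smooth muscle were nearly all lower in the organoids. Over the lists of MHC class II, T and NK cells, B and plasma cells, myeloid and mast cells, fibroblasts, endothelium and pericytes, smooth muscle, and enteric neurons and glia, 138 rows were compared. Of these, 126 were lower in both organoid libraries, 1 was higher and 44 had 0 reads in both. The rows of these lists with a read summed to 1.98% of the reads in intestine, 0.0458% in P5 organoids and 0.0799% in P10 organoids. In bulk RNA, fewer cells of a type and less RNA per cell cannot be told apart. The part of this loss of other cells in each epithelial result below was not tested.

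The T and NK cell list had 21 of 22 rows lower and 0 higher, with medians of -6.16 at P5 and -6.22 at P10, or -5.11 and -5.10 with counts of 0 set to 3 reads. GZMB, a granzyme of cytotoxic cells, had 2558 reads in intestine and 0 in both organoid libraries. NKG7 and CD3D, of cytotoxic granules and the T cell receptor complex, had 462 and 453 reads in intestine and 0 in both organoid libraries. PTPRC, the common leukocyte antigen CD45, had 3394 reads in intestine, 40 at P5 and 43 at P10. All 21 rows of the myeloid and mast cell list were lower, including C1QA of complement, with 6027 reads in intestine and 0 in both organoid libraries. Defining genes of these immune lists were therefore at or near 0 in the cultures.

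The B and plasma cell list was lower in 10 of 12 rows. JCHAIN, which joins the units of secreted IgA, had 86692 reads in intestine, 18 at P5 and 82 at P10. The row that went the other way was BLNK, an adaptor of B cell receptor signalling, with 197, 815 and 846 reads. All 11 rows of MHC class II were lower, with medians of -7.82 at both passages, or -5.73 and -5.42 with counts of 0 set to 3 reads, and 7 of the rows had 0 reads in both organoid libraries. CIITA, the switch factor of these genes, had 279 reads in intestine and 0 in both. BOLA-DMA and BOLA-DMB, which help load peptides, kept 69 and 32 reads at P5 and 94 and 62 at P10, against 3714 and 2291 in intestine.

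Stromal genes were lower as well. In the fibroblast list 23 of 25 rows were lower, with medians of -7.18 and -8.05, or -6.39 and -6.32 with counts of 0 set to 3 reads. COL3A1 and DCN, of interstitial matrix, had 8351 and 3351 reads in intestine and 0 in both organoid libraries. In the smooth muscle list 18 of 19 rows were lower. ACTG2 and DES, of enteric smooth muscle, had 8605 and 6449 reads in intestine and 0 in both, and MYLK, the myosin light chain kinase, had 19810, 487 and 87. TPM1, a tropomyosin also made by other cells, was the row not called, with 7596, 1731 and 8280 reads. The endothelial and pericyte list had 16 of 20 rows lower, led by PLVAP with 592, 0 and 0 reads, and the list of enteric neurons and glia had 6 of 8, led by VIP with 104, 0 and 0. The 2 alpha-globin rows, HBA and HBA1, ran the other way, with 21 and 18 reads in intestine, 177 and 145 at P5, and 249 and 213 at P10. These are near-identical copies whose reads the counting could share, and HBB had 3 reads in intestine and 0 in both organoid libraries.

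**Figure D2:**
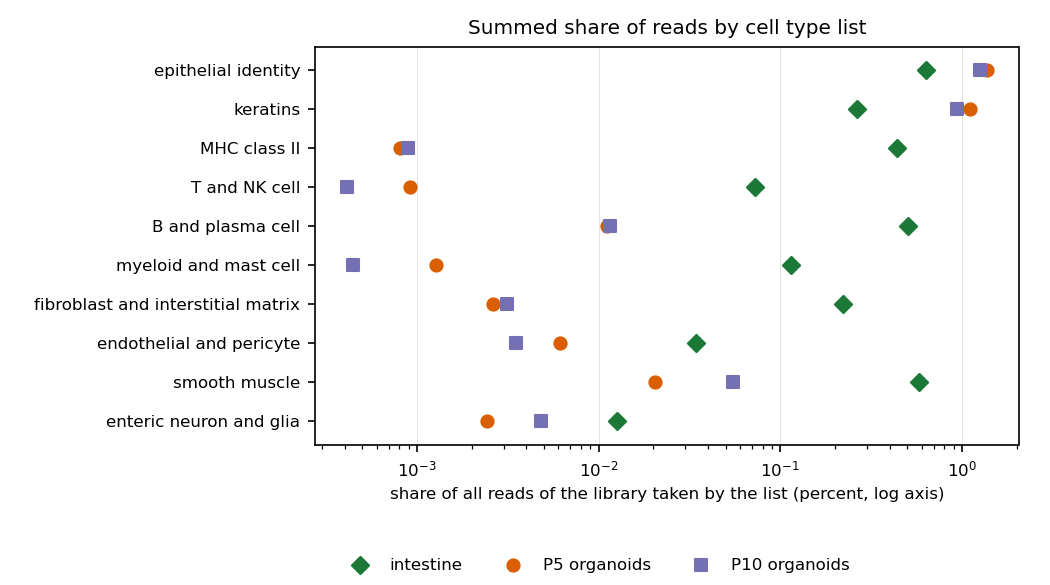
The x axis gives the percent of all reads of a library taken by the summed rows of each list, on a log axis, for intestine, P5 organoids and P10 organoids. The epithelial lists lie to the right in the organoids and the immune and stromal lists lie to the left of intestine, as with MHC class II at 0.439% in intestine, 0.000809% at P5 and 0.000891% at P10.

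Signals that stroma sends to the crypt were also lower, in 16 of 21 rows of the niche list. GREM1, a BMP antagonist, had 1616 reads in intestine and 1 in each organoid library, and FOXF1, a factor of gut mesenchyme, had 307, 0 and 0. RSPO3, a Wnt amplifier that the niche supplies to stem cells, had 413, 1 and 4 reads. BMP4, a growth-restraining signal, had 2565, 370 and 123. BMP7 and SFRP2, a BMP ligand and a secreted Wnt-binding protein, were higher, BMP7 with 30, 159 and 582 reads and SFRP2 with 90, 188 and 644. In the basement membrane list 9 of 18 rows were lower and 2 higher. NID1, nidogen, had 172, 0 and 0 reads, and COL18A1 had 631, 2 and 2. COL17A1, the collagen of hemidesmosomes that epithelium itself makes, had 6, 1856 and 326 reads, a rise of 522-fold at P5 and 66.2-fold at P10.

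Most general markers of epithelium were higher or held their level. Of 19 rows in the epithelial identity list, 8 were higher and 1 lower, with medians of 1.47 at P5 and 0.78 at P10. The keratins of simple epithelium were higher at both passages. KRT8 had 13892 reads in intestine, 56690 at P5 and 72376 at P10, a rise of 5.63-fold and 8.05-fold, and KRT19 had 9470, 52425 and 46154. KRT18, the partner of KRT8, had 825, 7790 and 33299 reads, with differences of 3.56 [3.46, 3.67] and 5.13 [5.02, 5.23]. Together KRT8, KRT18 and KRT19 took 0.136% of the reads in intestine, 0.860% at P5 and 0.856% at P10. KRT7, a keratin of ducts and of regenerating epithelium, had 55, 1224 and 1957 reads.

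KRT20 is a keratin of mature surface cells and was the member of the keratin list that split, with 23086 reads in intestine, 31917 at P5 and 12134 at P10. It was 2.29-fold higher at P5 and 2.25-fold lower at P10. EPCAM, the cell adhesion molecule of epithelia, had 5725, 14156 and 10244 reads and passed 2-fold at P5 only. CDH1, E-cadherin of adherens junctions, had 180, 825 and 846 reads and was higher by 5.95-fold and 4.43-fold. ELF3, an epithelial transcription factor, had 253, 1695 and 2368. PIGR, which carries IgA across the epithelium, was the lower member, with 60528, 9955 and 15788 reads. In the claudins, the proteins that seal tight junctions, 3 of 7 rows were higher, or 1 of 7 on each of the other 3 scalings. That member was CLDN2, which forms cation pores, with 2009, 6663 and 11620 reads. The others called on the quantile scale were CLDN12 with 55, 97 and 100 reads and CLDN23 with 77, 313 and 143.

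**Figure D3:**
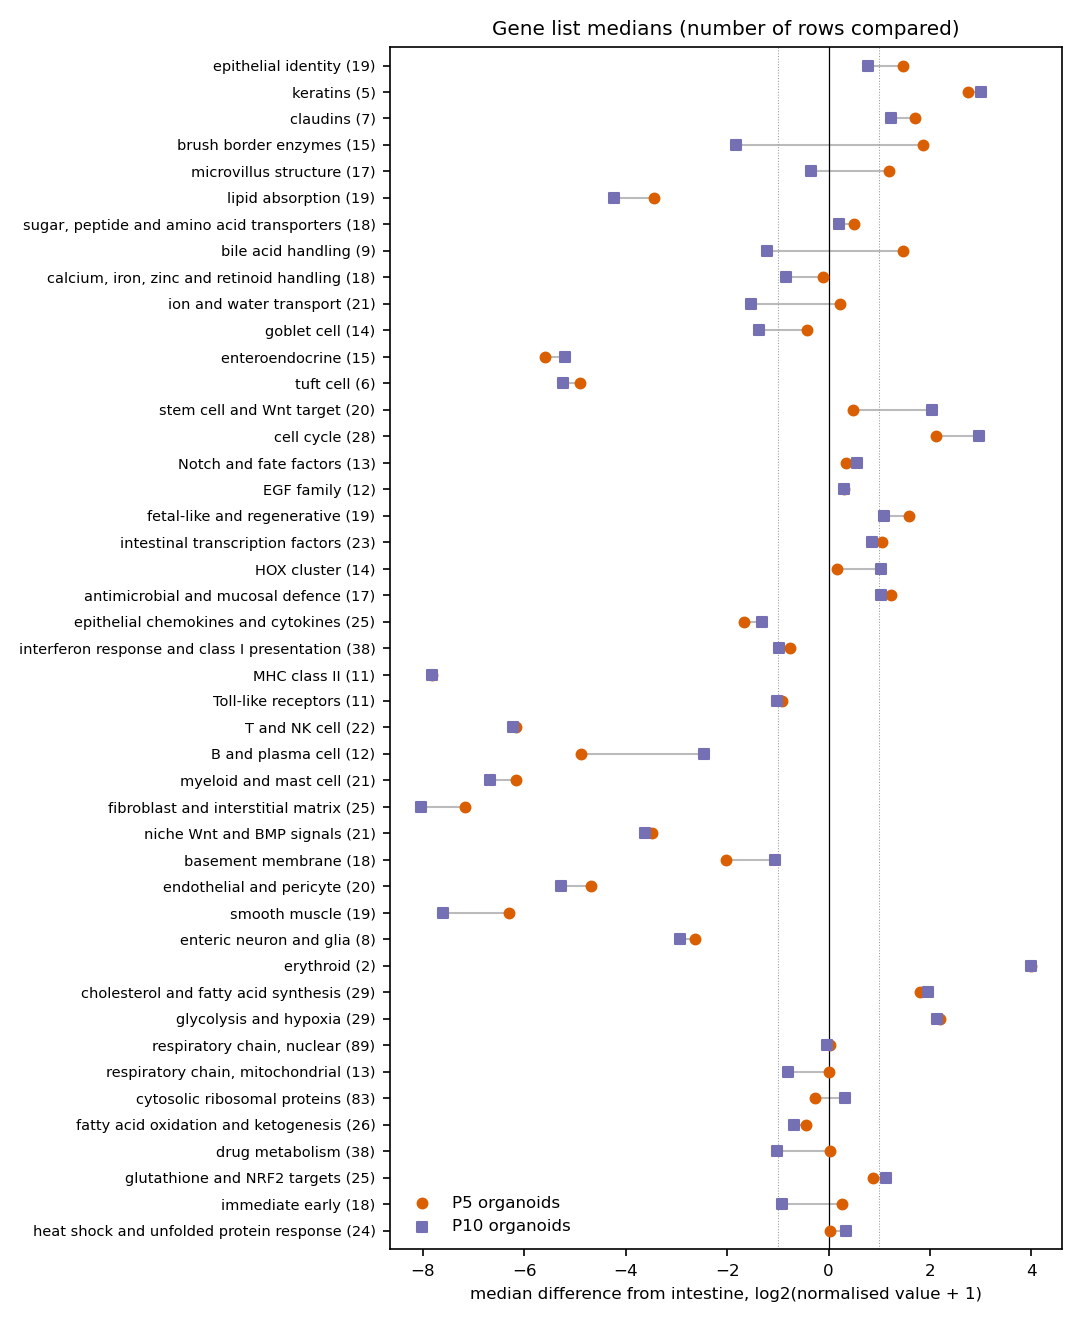
Each line is a gene list, and the x axis gives the median over its rows of the log2 difference from intestine, as a circle for P5 and a square for P10 organoids. Dotted lines mark 2-fold. Immune, stromal, enteroendocrine and lipid absorption lists lie on the left, the cell cycle, sterol synthesis and glycolysis lists lie on the right, and brush border enzymes and bile acid handling have their circle right and their square left of 0.

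Genes of fat absorption were lower in the organoids as a group. Enterocytes bind fatty acids with FABP1 and FABP2, rebuild triglyceride and pack it with apolipoproteins into chylomicrons. Of 19 rows, 13 were lower in both organoid libraries and 0 higher, with medians of -3.45 at P5 and -4.24 at P10. FABP1 had 341994 reads in intestine, 5328 at P5 and 1825 at P10, which is 1.92% of the intestinal library (Wilson 95% interval 1.92% to 1.93%), 0.0392% at P5 and 0.0103% at P10. FABP2 had 117512, 21036 and 1038 reads. Both binding proteins were lower at P5 and lower again at P10, FABP1 by 41.6-fold and 170-fold and FABP2 by 3.49-fold and 150-fold.

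Apolipoproteins were lower as well. APOA4 had 63699 reads in intestine, 34 at P5 and 0 at P10, and APOA1 had 19846, 136 and 0. APOC3 had 3126 reads in intestine, 1 at P5 and 0 at P10. APOB, the structural protein of the chylomicron, had 16622, 971 and 7 reads, and MTTP, which loads lipid on it, had 4832, 193 and 1. CD36, a fatty acid receptor, had 4394, 16 and 3. At P10 the particle proteins were thus at 7 reads or fewer, while PLIN2, which coats lipid droplets and was outside the called members, kept 1176, 1722 and 1571 reads. ABCG5, a sterol exporter, had 52, 68 and 2 reads and crossed from 1.35 at P5 to -2.38 at P10.

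The median of the brush border enzymes changed sign between passages. It was 1.86 at P5 and -1.83 at P10, and all 15 rows were lower at P10 than at P5. Both organoid libraries were higher in 6 rows, lower in 5 and opposed in 3, and the 6 were 2 on each of the other 3 scalings. MGAM and SI, the disaccharidases maltase-glucoamylase and sucrase-isomaltase, had 2735 and 2288 reads in intestine, 8118 and 6210 at P5, and 181 and 797 at P10. MGAM was thus 3.63-fold higher at P5 and 18.1-fold lower at P10. ANPEP, aminopeptidase N, had 125, 28104 and 243 reads, with a difference of 8.86 [8.52, 9.20] at P5 and 1.04 [0.66, 1.42] at P10, and its call was lost on each of the other 3 scalings.

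The members that were lower at both passages included TMPRSS15, enteropeptidase, which starts the activation of pancreatic enzymes, with 1458, 17 and 1 reads. MME, neprilysin, had 2456, 466 and 56 reads, and TREH, trehalase, had 511, 50 and 8. ENPEP and GGT1, an aminopeptidase and gamma-glutamyl transferase, were higher at both passages, ENPEP with 114, 1311 and 389 reads and GGT1 with 29, 381 and 116. The scaffold of the microvilli moved less. Of 17 rows, 1 was higher, 0 were lower and 1 was opposed, with medians of 1.19 at P5 and -0.35 at P10, and all 17 were lower at P10 than at P5. TMIGD1, an adhesion protein of the brush border, had 39, 14255 and 649 reads. PDZK1, a scaffold of transporters, was the opposed member, with 971, 2470 and 233 reads.

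**Figure D4:**
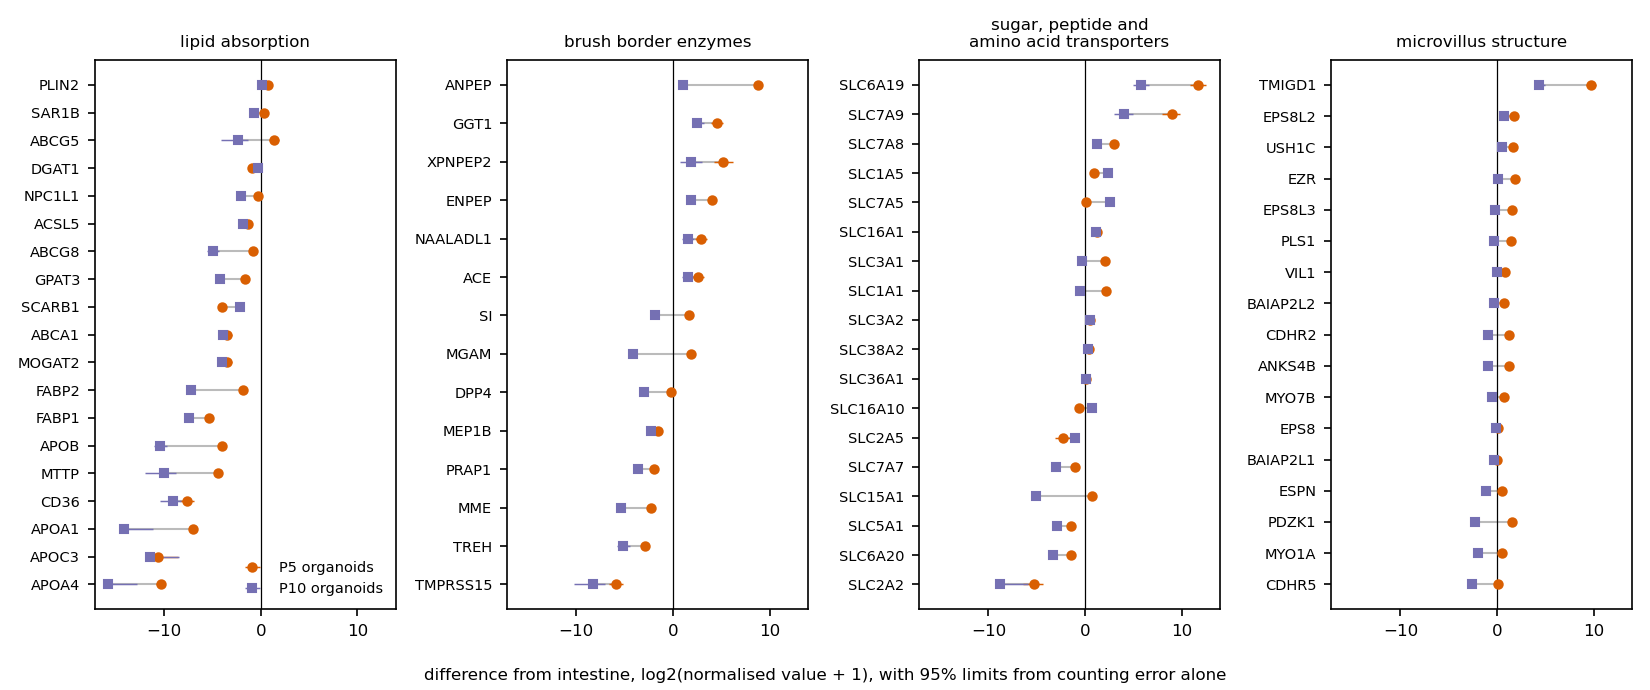
Panels give the log2 difference from intestine (x axis) of the members reported here of 4 absorption lists, as a circle for P5 and a square for P10 organoids, with bars for 95% limits from counting error alone. Members of lipid absorption lie mostly left of 0 at both passages, and MGAM and SI have circles right and squares left of 0.

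Nutrient transporters moved in both directions. Of 18 rows, 4 were higher and 5 lower in both organoid libraries, beside 16.6% and 16.2% of all rows. Another 9 were not called, and the medians were 0.51 and 0.21. With TMM or upper-quartile factors 3 were higher, and on the library-total scale 4 were lower. Of the higher ones, SLC16A1 carries monocarboxylates, with 343, 692 and 860 reads, and the others carry amino acids. SLC6A19, the main neutral amino acid carrier of the brush border, had 16 reads in intestine, 18937 at P5 and 628 at P10, a rise of 3324-fold and 53.8-fold. SLC7A9, which exchanges cystine and basic amino acids, had 9, 2297 and 91 reads, and SLC7A8 had 105, 563 and 224 and was not called with TMM or upper-quartile factors. The lower ones were SLC5A1, SLC2A2 and SLC2A5, which carry sugars, and SLC7A7 and SLC6A20, which carry amino acids. SLC5A1, the sodium-glucose carrier SGLT1, had 847, 262 and 121 reads, and SLC2A2, the basolateral glucose carrier GLUT2, had 539, 9 and 0. SLC15A1, the peptide carrier PEPT1, had 3211, 4631 and 106 reads, close to intestine at P5 and 33.7-fold lower at P10.

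Bile acid handling had 2 of 9 rows higher, 4 lower and 1 opposed, with medians of 1.47 and -1.22. SLC10A2, absent from the intestine library, was described above, and ABCC3, a basolateral exporter of conjugates, had 321, 1824 and 2047 reads. ABCC2, its apical relative, had 3583, 198 and 72. Of the target genes of the bile acid receptor, NR0B2 had 232, 1 and 0 reads and FGF19 had 87, 1 and 0. The receptor gene itself, NR1H4, given here as an example outside the called members, had 221, 1331 and 110 reads. GPBAR1, the membrane receptor for bile acids, had 103 reads in intestine and 0 in both organoid libraries. SLC51A, a subunit of the basolateral bile acid exporter, was opposed, with 715, 1726 and 372 reads. SLC51B, the other subunit and like SLC51A a target of the receptor, had 462, 1360 and 708 reads and was not called.

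Among 18 rows for calcium, iron, zinc and retinoid handling, 2 were higher and 6 lower. The carrier S100G had 0 reads in both organoid libraries, as given above, and TRPV6, the apical calcium channel, had 136, 0 and 0. CALB1, a larger calbindin outside the lists and named after its values were seen, had 17 reads in intestine, 1552 at P5 and 875 at P10, while VDR, the vitamin D receptor, had 2075, 1191 and 1835 and was not called. RBP2, the retinol carrier of enterocytes, had 37748, 2596 and 1145 reads, and BCO1, which cleaves beta-carotene to retinal, had 1623, 45 and 45. SLC11A2, the iron importer DMT1, had 403, 4306 and 1036 reads and TFRC, the transferrin receptor, had 756, 1588 and 1861. CYBRD1, a ferric reductase of the brush border, had 329, 14 and 95, so that genes of iron uptake moved both ways.

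The 21 rows of ion and water transport had 4 higher, 7 lower and 1 opposed, beside 16.6%, 16.2% and 0.611% of all rows. SLC26A3, a chloride-bicarbonate exchanger most abundant in the colon, had 34, 3549 and 447 reads, a rise of 190-fold and 16.6-fold. CFTR, the chloride channel of crypt secretion, had 521, 1822 and 2090, and KCNN4, the potassium channel that drives it, had 365, 982 and 2199. CA2, carbonic anhydrase of surface cells, had 3481, 88 and 0 reads, AQP1 had 3734, 90 and 175 and AQP3 had 203, 7 and 0. GUCY2C, the receptor of guanylin, was the opposed row, with 812, 1456 and 466 reads.

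Hormone genes were largely lower in the organoids. Enteroendocrine cells are scattered hormone-producing cells, and 13 of the 15 rows of their list were lower, with medians of -5.59 and -5.20, or -3.50 and -2.73 with counts of 0 set to 3 reads. GIP, glucose-dependent insulinotropic peptide, had 3814 reads in intestine and 0 in both organoid libraries, at least 816-fold and 478-fold lower. SST, somatostatin, had 4141, 1 and 0 reads and CCK, cholecystokinin, had 1569, 8 and 0. CHGA, chromogranin A of hormone granules, had 3219, 43 and 95 reads, so that the granule protein remained at 3.16 CPM (counts scaled to a common library total) at P5 and 5.36 CPM at P10. NEUROG3, the factor that starts this lineage, had 28, 36 and 51 reads. It was called higher on the quantile scale alone. In the tuft cell list, 4 of 6 rows were lower, and all 4, PLCB2, ALOX5, ALOX5AP and PTGS1, are also expressed by immune cells. ALOX5AP, of leukotriene synthesis, had 241, 0 and 0 reads and PTGS1, of prostaglandin synthesis, had 583, 13 and 7. SH2D6, a further tuft cell marker that was not called, had 80, 21 and 157 reads, with differences of -0.83 and 1.28.

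Of 14 goblet cell rows, 6 were lower, 1 was higher and 7 were not called, with medians of -0.43 and -1.38. MUC2, the gel-forming mucin, had 15017 reads in intestine, 1666 at P5 and 4242 at P10, and was 8.18-fold and 4.16-fold lower. TFF3, a trefoil peptide that is secreted with mucus, had 36062, 8005 and 5869, and FCGBP, a mucus-linked protein, had 45246, 3668 and 1925. CLCA1, a mucus-processing protease, had 8900, 1366 and 78 reads, and ZG16, which binds bacteria in mucus, had 137, 1 and 4. The called higher row, REP15, had 18, 15 and 71 reads, and its P5 difference lay below 0 with TMM and upper-quartile factors.

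Proliferation genes were higher at both passages. Of 28 rows in the cell cycle list, 24 were higher in both and 0 were lower, with medians of 2.13 at P5 and 2.96 at P10, and the 24 were the same number on all 4 scalings. MKI67, the proliferation marker Ki-67, had 128 reads in intestine, 891 at P5 and 2168 at P10, with differences of 3.30 [2.96, 3.66] and 4.18 [3.85, 4.53]. CDC20, of the mitotic exit machinery, had 51, 337 and 978 reads, and CCNB2, a mitotic cyclin, had 62, 403 and 964. RRM2 and MCM2, of nucleotide supply and replication licensing, had 184 and 286 reads in intestine, 1328 and 1345 at P5, and 4476 and 5338 at P10. PLK1, MCM7, MCM3 and STMN1 passed 2-fold at P10 only.

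Stem cell and Wnt target genes had 7 of 20 rows higher and 0 lower in both organoid libraries, with medians of 0.47 at P5 and 2.04 at P10. Counted at P5 by itself, 2 rows were lower, NKD1 with 50, 1 and 58 reads and TNFRSF19 with 78, 9 and 83. NOTUM, with 48, 0 and 0 reads, was under the minimum and not compared. OLFM4, a crypt base marker, had 1489, 8151 and 34268 reads. SMOC2, another crypt base gene, had 1789 reads in intestine, 1804 at P5 and 14206 at P10, so that it stood at the level of intestine at P5 and 6.84-fold above it at P10. PHLDA1 had 133, 1677 and 1041 reads, MSI1, an RNA-binding protein of progenitors, had 51, 169 and 585, and EPHB2, a receptor that sorts crypt cells, had 132, 384 and 999. In 19 of 20 rows the P10 difference exceeded the P5 difference, by values alone.

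Among 13 rows of Notch and fate factors, 3 were higher and 2 lower, near the 16.6% and 16.2% of all rows. With TMM factors 2 were higher and 3 lower. NEUROG3, given above, was among the higher ones on the quantile scale alone. LFNG, which tunes Notch receptors, had 401, 698 and 2447 reads, and JAG2, a Notch ligand, had 9, 195 and 30. MFNG, a relative of LFNG, had 224, 0 and 0, and NOTCH2, not called on the library-total scale, had 727, 201 and 398. In the EGF family list, 3 of 12 rows were higher and 2 lower, also near the shares of all rows. ERRFI1, a feedback inhibitor of the EGF receptor, had 117, 835 and 648 reads. AREG and TGFA, ligands of that receptor, had 53 and 89 reads in intestine, 331 and 180 at P5, and 127 and 350 at P10. AREG was not called with upper-quartile factors. NRG1, a ligand from stroma and some epithelia, had 604, 27 and 24 reads, and EGFR itself had 894, 1112 and 1127 and was not called.

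The list of genes of fetal-like and regenerating epithelium had 9 of 19 rows higher (6 with upper-quartile factors) and 3 lower, with medians of 1.59 and 1.09. KRT7, given above, was among the higher ones, with PHLDA2 at 0, 11 and 80 reads. CLU, clusterin, a marker of stem cells that appear after injury, had 3601, 7176 and 15613 reads and was higher by 1.22 and 1.83. The lower ones were CTGF and CYR61, 2 targets of YAP that stroma also makes, with 236 and 286 reads in intestine, 9 and 0 at P5, and 0 and 15 at P10, and PLAUR with 155, 15 and 22. Of all rows compared, 16.6% were higher and 16.2% lower, so the lower members were about as frequent as among all rows.

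Regulators of intestinal position diverged. The segment of the intestine sample is not given, so segment and culture cannot be told apart for these genes. Of 23 rows of intestinal transcription factors, 7 were higher (11 on the library-total scale), 5 lower and 1 opposed, with medians of 1.06 and 0.85. CDX2 and CDX1, homeobox factors of gut identity, had 4 and 112 reads in intestine, 199 and 1040 at P5, and 24 and 2613 at P10. GATA4, which marks the proximal small bowel, had 2919, 82 and 88 reads and was 29.5-fold and 35.6-fold lower. ONECUT2 had 13290, 221 and 330 reads, and CREB3L3, a regulator of lipid genes, had 869, 12 and 7.

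Of the 23 rows of intestinal transcription factors, 10 were not called. HNF4A had 1652, 2891 and 4136 reads, with differences of 0.96 and 1.10, so that it passed 2-fold at P10 and missed it at P5. GATA6, as a further example, had 1457, 1335 and 2489 reads with 0.03 and 0.53. MAF, a factor of mature enterocytes, was opposed, with 1799, 4293 and 158 reads. HOX genes lie in clusters whose order follows position in the body. Of 14 rows, 6 of the A and C clusters were higher (5 on each of the other 3 scalings) and 4 of the B cluster were lower. The 4 rows not called, HOXA2, HOXA3, HOXA4 and HOXA5, were all of the A cluster. HOXA5 differed by -1.18 at P5 and -0.00 at P10. HOXA7 had 16, 81 and 248 reads, HOXC8 had 23, 136 and 291 and HOXC9 had 39, 217 and 264. HOXB5 and HOXB2 had 67 and 64 reads in intestine and 0 in both organoid libraries, and HOXB3 had 138, 2 and 18. No B cluster row was called higher and no A or C cluster row was called lower among those compared.

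Antimicrobial genes moved far in both directions. Of 17 rows, 9 were higher and 7 lower, with medians of 1.23 and 1.03, which fell to 0.37 and 0.04 with TMM factors. Among the 7 beta-defensin rows compared, 6 were higher and 1 was lower. EBD was 726-fold higher at P5 and 1874-fold higher at P10, and took 0.00149% of the reads in intestine, 0.893% at P5 and 1.86% at P10. LAP, lingual antimicrobial peptide, had 0, 192 and 352 reads and DEFB13 had 6, 648 and 955. DEFB7 had 41, 46 and 50 and was called on the quantile scale only. DEFB4A went the other way, with 168, 11 and 32 reads. Beta-defensins are a multigene family, and reads of close copies could have been split between them.

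PI3, elafin, an inhibitor of neutrophil elastase, had 8449, 98603 and 345644 reads. LOC100850808, named after its values were seen, had 6236, 56165 and 325275. EBD, PI3 and LOC100850808 together took 0.0841% of the reads in intestine, 2.03% at P5 and 5.64% at P10. BPI, which binds endotoxin, had 1853, 5299 and 20676 reads. Lysozymes and other secreted antibacterial proteins were lower. LYZ2 and LYZ, lysozymes, had 1703 and 704 reads in intestine, 0 and 2 at P5, and 0 in both rows at P10. PLA2G2A, a secreted phospholipase with 2 rows in the files, had 42195, 59 and 199 reads in the row with more reads and 13421, 941 and 1441 in the other. REG3G, a lectin that kills bacteria, had 11549, 1492 and 615 reads. The loss of these products stood beside the gain of the beta-defensins in the same libraries.

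**Figure D5:**
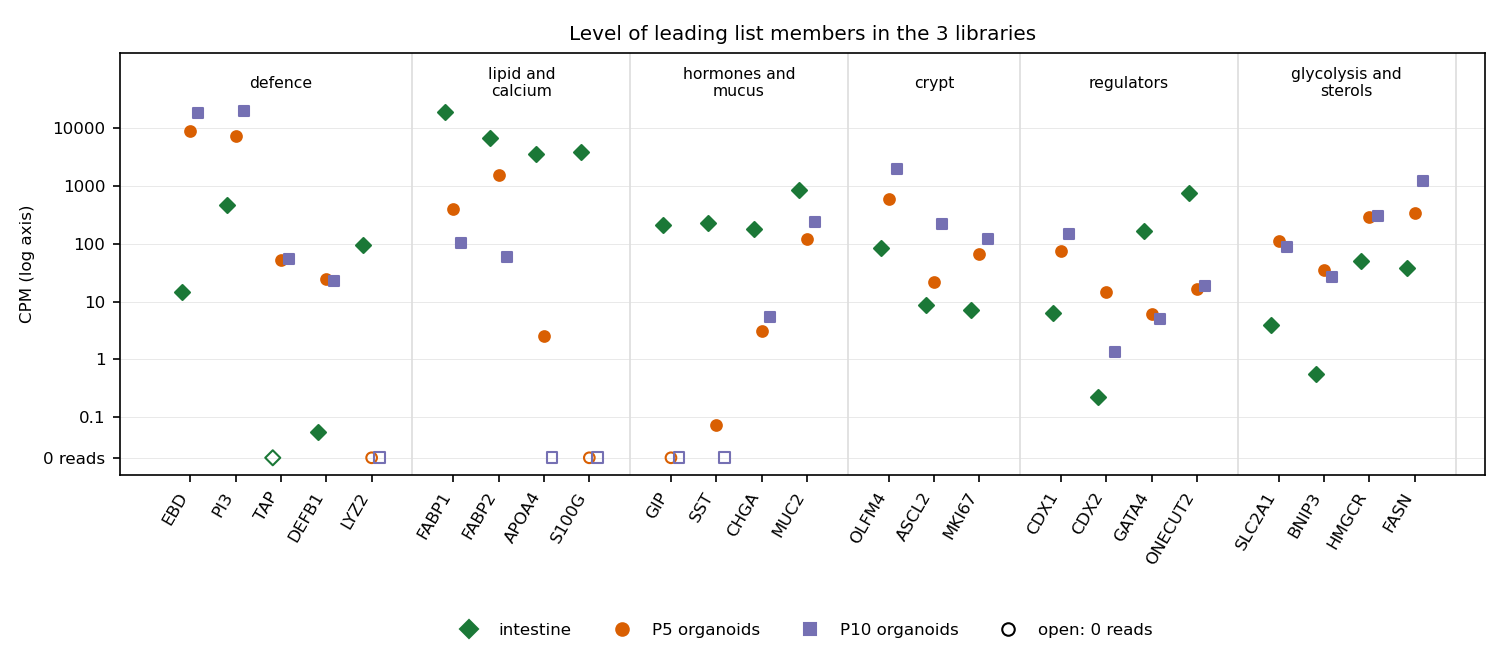
The y axis gives CPM, counts scaled to a common library total, on a log axis for 24 list members in intestine, P5 organoids and P10 organoids, with open symbols at the bottom for 0 reads. EBD, PI3 and CDX1 are higher in both organoid libraries, and FABP1, APOA4, S100G, GIP, SST and GATA4 are higher in intestine.

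Chemokines and cytokines of the epithelium had 12 of 25 rows lower and 4 higher. CCL25, which draws lymphocytes to the small bowel, had 10935 reads in intestine, 2030 at P5 and 674 at P10. CXCL12, CCL2 and CCL5, made largely by stroma and leukocytes, had 2092, 624 and 1009 reads in intestine, and CXCL12 and CCL2 had 0 in both organoid libraries while CCL5 had 0 at P5 and 8 at P10. The higher ones attract neutrophils or dendritic cells: CXCL2 had 9, 94 and 199 reads, GRO1 had 7, 23 and 96, and CCL20 had 21, 1512 and 87. Among Toll-like receptor genes, 2 of 11 were higher and 5 lower. TLR5, the flagellin receptor, had 14, 56 and 89 reads and TLR2 had 44, 84 and 129. TLR7 had 147, 0 and 0, and CD14, a coreceptor of TLR4 abundant on myeloid cells, had 123, 10 and 0.

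Interferon and class I genes had 12 of 38 rows lower and 0 higher, with medians of -0.76 and -0.98. OAS2 and OAS1Y, sensors of viral RNA, had 1252 and 1083 reads in intestine, 42 each at P5 and 1 each at P10. IFI6, an interferon-induced protein, had 1839, 56 and 56 reads. B2M, the shared chain of class I molecules, had 58020, 40394 and 11834 reads, close to intestine at P5 and 5.04-fold lower at P10. The class I row BOLA with the most reads had 62058, 57329 and 39831 and was not called. Class I transcripts therefore persisted in the cultures in which class II rows were at or near 0.

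Genes of sterol and fatty acid synthesis were mostly higher in the organoids. Of 29 rows, 21 were higher in both organoid libraries and 0 lower, with medians of 1.81 and 1.95. FASN, fatty acid synthase, had 691 reads in intestine, 4669 at P5 and 21826 at P10, a rise of 8.07-fold and 27.0-fold. TM7SF2, a sterol reductase, had 34, 359 and 829 reads, and SCD, which desaturates fatty acids, had 2130, 15662 and 16963. HMGCS1, which makes the precursor of mevalonate, had 3135, 11736 and 16383. Synthesis genes were thus higher in the libraries in which the genes for exporting fat were lower.

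Glycolysis and hypoxia genes had 21 of 29 rows higher and 2 lower, with medians of 2.20 and 2.14. SLC2A1, the glucose carrier GLUT1, had 70, 1549 and 1583 reads, a rise of 36.1-fold and 27.5-fold. BNIP3 and NDRG1, which respond to low oxygen, had 10 and 403 reads in intestine, 475 and 9337 at P5, and 476 and 9429 at P10. GAPDH had 9909, 41032 and 54127 and ENO1 had 5677, 17007 and 26888. The lower ones were SLC2A3, a glucose carrier also found in blood cells and neurons, with 132, 0 and 0 reads, and PFKP with 1684, 454 and 1005. PFKP was not called on the other 3 scalings.

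Nuclear respiratory chain genes gave few calls. Of 89 rows, 4 were higher and 1 lower, with medians of 0.03 and -0.03, close to the medians of all rows. NDUFA4L2, a subunit induced by low oxygen, had 220, 906 and 1224 reads. Of 13 mitochondrial genes, COX1 was higher, with 43351, 266127 and 241482 reads, and ATP8 was opposed, with 5739, 12706 and 1912. The medians of the mitochondrial genes were 0.00 and -0.80, and -0.68 and -1.94 with TMM factors. None was lower in both organoid libraries on the quantile scale, and 3 were with TMM or upper-quartile factors. Together the mitochondrial genes took 16.8% of the reads in intestine, 13.0% at P5 and 7.09% at P10. Of 83 cytosolic ribosomal protein rows, 2 were higher and 0 lower in both organoid libraries. Those 2 were RPL22L1 and RPL26L1, which are paralogues of standard ribosomal proteins, with 670, 1345 and 2761 reads and 237, 519 and 739 reads. On each of the other 3 scalings 4 were higher. Counted by passage, 5 rows were lower at P5 and 15 were higher at P10, and in 81 rows the P10 difference exceeded the P5 difference. The list took 6.63% of the reads in intestine, 5.60% at P5 and 10.1% at P10.

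Fatty acid oxidation had 5 of 26 rows higher and 7 lower. PDK4, which spares glucose for fat burning, had 1303, 14 and 0 reads. UCP3, an uncoupling protein, had 0, 2278 and 50 reads and UCP2 had 404, 4770 and 1380. In drug metabolism, 11 of 38 rows were lower, 5 higher and 1 opposed. CYP4F2 has 2 rows, of which the row with more reads in intestine had 2929, 104 and 32, and GSTA1 had 8198, 898 and 731. GSTA2 had 175, 1511 and 1752 and CYP1B1 had 0, 14 and 56. These families hold close paralogues, between which reads could have been split. CYP2C87 was opposed, with 2566, 4723 and 1510 reads.

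Glutathione and NRF2 target genes had 9 of 25 rows higher and 3 lower, with medians of 0.88 and 1.14. GPX2, the glutathione peroxidase of gut epithelium, had 249, 9440 and 14407 reads, with differences of 5.72 [5.52, 5.94] and 5.80 [5.60, 6.02]. GSR, which regenerates glutathione, had 358, 2995 and 4948, OSGIN1 had 15, 135 and 170 and PRDX1 had 6799, 26084 and 49637. GPX3, the secreted peroxidase, had 219, 0 and 9 reads, CAT, catalase, had 3530, 761 and 829 and HMOX1 had 822, 319 and 229. HMOX1 was not called on the library-total scale.

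Of 18 immediate early genes, which respond within minutes to handling, 2 were higher, 2 lower and 2 opposed, beside 16.6%, 16.2% and 0.611% of all rows. FOSL1 had 1, 32 and 86 reads and IER3 had 154, 476 and 888, while NR4A1 had 442, 22 and 65 and KLF2 had 125, 6 and 12. SGK1, a hormone- and stress-induced kinase, was opposed with 568, 1104 and 165 reads, as was ATF3 with 6, 50 and 0. The P10 difference of ATF3, -1.81 [-2.76, 1.33], lay within counting error, so a fall at P10 was not shown for it. Of 24 heat shock and unfolded protein genes, 3 were higher and 1 lower. CHAC1, which degrades glutathione under stress, had 24, 76 and 186 reads, ASNS had 204, 393 and 518, and HSP90B1 had 3133, 5702 and 10447 with a P5 difference of 1.01, at the edge of 2-fold. DNAJB9, not called on the library-total scale, had 954, 392 and 223. The medians of this list were 0.03 and 0.35.

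The genes that the study stained for or measured by RT-PCR, in organoids that need not be those sequenced, had 4 of 16 rows higher and 6 lower. The stains show protein, and the RT-PCR set organoids of a later passage against muscle. Neither is the comparison of RNA with intestine made here. By sequencing, the study did set P5 organoids against intestine for LGR5, ASCL2, EPHB2, PHLDA1, SOX9 and OLFM4. It describes these genes as upregulated at P5 or similar to intestine. Since the list was drawn up by the study, its balance is not independent evidence. ASCL2, a stem cell factor, had 155, 300 and 3832 reads and SOX9, a progenitor factor, had 550, 914 and 3814. BMI1 had 271, 142 and 265 reads and was not called. FOXA3, a forkhead factor, had 316, 474 and 750. ACTB, taken here for F-actin, for which the study names no gene symbol, had 45036, 63068 and 67855. It differed from intestine by 1.17 and 0.82. GCG, the precursor of GLP-1, had 88, 0 and 5 reads. LGR5, the stem cell receptor, had 23, 34 and 9 reads, under the minimum of 50, and was not compared. The other members of the list were given with their groups.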

How the data were processed

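RNA of 4 libraries was measured by QuantSeq 3′ sequencing, 1 each of intestine, muscle, P5 organoids and P10 organoids. The authors used Bowtie2 for alignment and Bedtools coverage for counting, with unique as well as multiple alignments, and deposited the raw read counts per gene without normalisation. Versions, build, annotation and strand setting are not given in the sources used here, so reads of antisense or overlapping genes cannot be told apart. Each row was named by its symbol, and 95.4% of the 14542 distinct symbols compared were found in the RefSeq table of ARS-UCD2.0.

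As the methods name quantile normalisation, the 22200 rows with a read were quantile-normalised over the 4 libraries (ties took the value at the middle of their ranks), and the log2 of the value + 1 was taken. A single read then stood at 0.32 in intestine, 0.81 at P5 and 2.09 at P10, so low counts are not equal across libraries. Rows with at least 50 reads in the highest of the 3 libraries were compared. A call needed a 2-fold difference of 1 sign in both organoid libraries. Limits are exact Poisson 95% limits mapped through the normalisation and combined by their squares. Reads without molecular identifiers are not independent molecules, so limits cover counting error only. A count of 0 was set at 3 reads for "at least" folds. That floor is 0.169 CPM in intestine and P10 organoids and 0.221 CPM in P5 organoids.

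The members and the 46 gene lists were chosen with earlier results of these data known. Genes named are the 10 largest and 10 smallest shared differences, per list the 3 called members furthest in each direction and the 2 with most reads, the 5 opposite rows with the largest gap each way, and the genes the study stained for or measured by RT-PCR. Further list members are examples, chosen after their values were seen. Some genes that meet the rule are not reported here. Alternatives were library totals, edgeR's TMM and upper-quartile factors, quantile normalisation without muscle, pseudocounts of 0.1 and 5, minimums of 10 and 200 reads and none, a 4-fold call, a call with counting limits clear of 0, rows summed by symbol, and removal of RN18S1 and transfer RNA rows. Setting counts of 0 to 3 reads was added after seeing the data. The code was tested on simulated data. edgeR 4.0.16 and limma 3.58.1 ran in R 4.3.3, and scipy 1.17.1, pandas 2.3.3 and numpy 2.4.6 in Python 3.11.15.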

Additional observations from a re-analysis of the deposited data

Results flagged for a closer look

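Effects of opposite sign in the 2 organoid libraries were picked out among the rows named and the list members. With 1 library at each passage, none of these differences was tested. Brush border enzymes as a list differed by -3.69 between their P10 and P5 medians, and bile acid handling by -2.69. Among the members higher than intestine at P5 and lower at P10, the difference of P10 and P5 organoids was -6.04 for MGAM, -3.50 for SI, -3.85 for PDZK1 and -3.73 for ABCG5. It was -2.69 for SLC51A, -2.11 for GUCY2C, -2.36 for KRT20, -5.19 for MAF and -2.15 for CYP2C87. It was -3.36 for ATP8, a mitochondrial gene, -3.12 for SGK1 and -5.87 for ATF3. For ATF3 the fall from intestine at P10, from 6 reads to 0, lay within counting error.

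The 5 widest gaps in that direction over all rows were those of TAC3, SLC30A10, LONRF3, TRIM40 and NLRP3. TAC3, a tachykinin, had 15 reads in intestine, 217 at P5 and 0 at P10, with a gap of -7.80. SLC30A10, a manganese exporter, had 91, 201 and 0 reads and a gap of -7.69. LONRF3 had 83, 121 and 0 reads and TRIM40 had 61, 121 and 0, each with a gap of -7.00. NLRP3, an inflammasome sensor, had 30, 92 and 0 reads and a gap of -6.63. The 5 widest in the other direction were GULO, of vitamin C synthesis, with 13, 0 and 77 reads and 6.06, FAM131B with 3, 0 and 69 and 5.94, LOC107131573 with 7, 0 and 51 and 5.59, LOC101907581 with 11, 0 and 51 and 5.59, and KAZALD1 with 14, 2 and 126 and 5.17. Each of these rows has a library at 2 reads or fewer, so the size of its gap depends on the added 1 and on the spread of low counts. The opposite call can depend on them too, since 77 rows rather than 89 were opposite with counts of 0 set to 3 reads. For FAM131B, with 3 reads in intestine and 0 at P5, no fall was detectable at P5.

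Muscle, the library outside the comparison, held more than 3 reads on 4 rows that had 0 reads in intestine and were among the 10 with the largest shared rise. It had 54 reads on C28H10orf99, 30 on SLC10A2, 18 on ULBP21 and 11 on OSR2.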

How the results depend on the processing

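No paired analysis was possible because each group has 1 library, and for the same reason no replicate could be left out. The counts of higher, lower and opposite rows stayed within 1.5-fold of 2413, 2360 and 89 under library totals, TMM, upper quartile, quantile normalisation without muscle, both other pseudocounts, the call with counting limits clear of 0, rows summed by symbol, removal of RN18S1 and transfer RNA rows, and counts of 0 set to 3 reads. With a minimum of 10 reads there were 356 opposite rows. With a minimum of 200 reads there were 1537 higher, 1463 lower and 42 opposite rows, and with none 3796, 3654 and 465. With a 4-fold call there were 980, 1540 and 15. These settings change the number of rows compared or the call itself.

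Of 218 named rows with a call and a symbol of their own, 205 kept it under library totals, 208 with TMM, 207 with upper quartile and 217 without muscle. REP15 changed sign at P5, to -0.045 with TMM and -0.021 with upper quartile. Among list medians past 2-fold, the P5 median of bile acid handling became -0.25 with a minimum of 10 reads and with none. The P10 median of antimicrobial genes became -0.74 with 10 reads and -0.81 with none, and the P5 median 0 with none. With no minimum the P10 median of the HOX cluster became 0 and the P5 median of the erythroid list -0.90. Where both libraries had 3 reads or fewer, a difference was not detectable at this depth.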
